A study of Mus musculus with 18 samples.

Results

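Livers of mice that ate a high-fat diet and were also dosed with alginate oligosaccharide (HFD+AOS) were compared with livers of control mice (Con) by RNA-seq. The comparison used 3 libraries of each group, 6 of the 18 liver libraries of the series, and the members were the genes that reached 1 RPKM in 3 or more of the 18 libraries, 10507 of the 19057 lines of the deposited table. RPKM is a read number scaled to the length of the gene and the size of the library, and so a level per length. Alginate oligosaccharide (AOS) is a mixture of short sugar chains cut from alginate, a polymer of brown algae. All mice were of the ICR strain and 10 weeks old, and the study's methods describe its mice as males. Con mice received a regular diet and saline. The HFD+AOS mice are labelled with the high-fat diet and AOS at 10 mg/kg. Beside them 2 further groups are given, HFD (the high-fat diet with saline) and AOS (labelled with AOS at 10 mg/kg alone). The other 2 groups, Con-FMT and A10-FMT, ate the high-fat diet and received gut microbiota of control or of AOS-dosed mice. Their libraries entered the choice of genes and the fit behind the p values. How and for how long the AOS and HFD+AOS mice were dosed is not given in the sources used here, which describe AOS dosing by gavage for the donors of a microbiota transplant. Diet and AOS both differ between HFD+AOS and Con, so that their parts in a difference cannot be told apart from this comparison alone.

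The liver burns fatty acids in mitochondria and peroxisomes and turns part of them into ketone bodies, and it makes and exports bile acids, lipoproteins and most proteins of the plasma. Much of this work follows the circadian clock, in which Bmal1 (gene symbol Arntl) with Clock or Npas2 drives genes of the Per, Cry and Rev-erb (Nr1d) families and the PAR bZIP factors Dbp, Tef and Hlf, while the Rev-erb proteins in turn hold down Arntl. In inflammation the liver raises its acute phase proteins, among them the serum amyloids A. Fatty acids and their derivatives act through the nuclear receptor PPAR-alpha (Ppara), and oxysterols through LXR.

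The RPKM of the 6 libraries summed to between 719765 and 806937, and from 14726 to 14872 lines were above 0. Read numbers were not analysed here, so the depth of a library is unknown. The third Con library stood apart from the pattern of replicates elsewhere. Of 148 genes at least 1 log2 unit apart in the first and second Con libraries, it lay between them for 145 (98.0%), and it differed from a weighted mean of the pair, with weights of 0.54 and 0.46, by a median of 0.0665 on the log2 scale. For the 12 libraries of groups other than Con and AOS the same difference went from 0.341 to 0.590. The third AOS library was alike in this (0.0830). The labels list both as libraries of their own, and the counts are also given without them. Nothing in the sources says that each library is a separate mouse, and the p values measure the spread between libraries, which may in part be technical.

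Between HFD+AOS and Con, 1685 of 10507 genes changed (16%), 1132 of them higher in HFD+AOS (10.8%) and 553 lower (5.26%), at an adjusted p under 0.05 by limma, fitted to the 18 libraries of all 6 groups. Of these, 88 were higher (0.838%) and 87 lower (0.828%) by a log2 fold change of 1 or more in size (1.67% together). At an unadjusted p under 0.05 the share was 30.6% (19.3% higher and 11.3% lower). Fold changes are differences of log2(RPKM + 1) and understate the change of genes with a low level. Without the third Con library 1017 genes passed, without the first Con library 954, and without the first HFD+AOS library 1060. Without the third Con and AOS libraries together 828 passed. With the median of every library set equal 1994 passed, 1061 higher and 933 lower, so that the excess of higher genes in the values as deposited was mostly lost with that scaling, which moved the median log2 fold change of all genes from 0.03 to -0.01. The groups did not overlap for 3543 genes (33.7%), HFD+AOS lying above Con for 2159 (20.5%) and below for 1384 (13.2%). Against HFD alone, 919 genes changed (8.75%), 438 higher in HFD+AOS (4.17%) and 481 lower (4.58%). Against AOS alone 572 changed (5.44%), 264 higher (2.51%) and 308 lower (2.93%). These 3 comparisons share the HFD+AOS libraries.

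**Figure D1:**
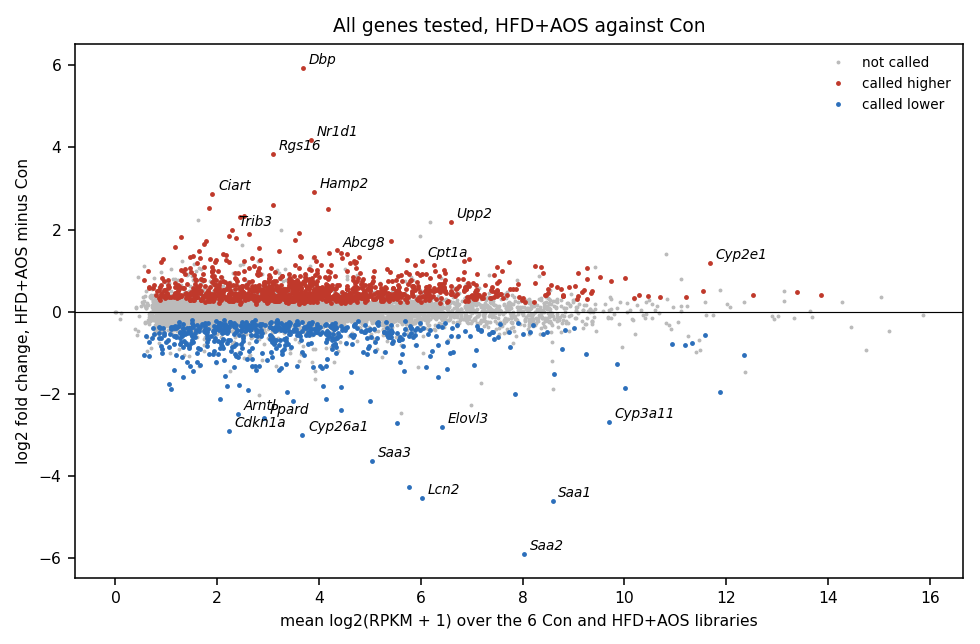
Log2 fold change of every gene tested, HFD+AOS minus Con (vertical axis), by its mean log2(RPKM + 1) over the 6 libraries (horizontal axis). Red points are the 1132 genes called higher, blue points the 553 called lower and grey points the others; Dbp is the highest point and Saa2 the lowest.

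Lists of cell type markers were checked beside these counts. All 8 hepatocyte markers were expressed, with a summed RPKM from 37631 to 55845 in Con and from 53644 to 61810 in HFD+AOS. Of the 8, 1 was higher in HFD+AOS, beside 10.8% of all genes. Of 13 Kupffer cell and macrophage markers none passed by limma (summed RPKM 148 to 222 in Con and 154 to 172 in HFD+AOS). At an unadjusted p under 0.05, 1 was lower, beside 11.3% of all genes. The 8 markers of antigen-presenting cells, 4 of which were tested, summed to between 52.4 and 57.7 in Con and between 72.6 and 76.5 in HFD+AOS. These sums did not overlap between the groups, as was so for 33.7% of all genes taken singly. None of the 4 passed by limma, with or without adjustment. Adipocyte markers other than Car3 and Fabp4 were at or near 0 (Lep, Retn and Plin1 at 0 in all 6 libraries), as were those of the exocrine pancreas. Erythroid markers summed to between 1535 and 2958 in Con and between 1049 and 1633 in HFD+AOS. In whole liver, fewer cells of a type and less RNA per cell cannot be told apart.

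Clock genes split by their phase. Of 20 clock genes, all tested, the 6 that peak with Bmal1 were all lower in HFD+AOS (median log2 fold change -1.62). Of the 14 repressors and PAR bZIP genes of the opposite phase 10 were higher and none lower (median 1.23). Over all genes the median was 0.03, with 10.8% higher and 5.26% lower. The hour at which livers were taken is not given in the sources used here, so that group and hour cannot be told apart. This limit holds for the clock genes and for every other gene compared here.

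Clock genes are known to be driven through 3 kinds of site, and 4 promoter windows are printed to show each kind. They are RefSeq windows of GRCm38.p6 from 250 bases before to 50 bases after a gene's start, read 5′ to 3′ on the gene's strand, and 17 of the 20 clock genes had one. Searched on both strands, the E-box CACGTG, the site of Bmal1 and Clock, was in 7.15% of 32851 windows of all genes and in 7 of the 23 windows of clock genes, which belonged to 6 of the 17. Of these 6 genes 3 were higher in HFD+AOS (Ciart, Tef and Bhlhe41), 1, Cry1, was lower, and 2 did not pass. The D-box, searched as TTATGTAA or TTACGTAA, the site of Dbp, Tef, Hlf and their repressor Nfil3, was in 1.06% of all windows and in 1 of the 23, that of Per3. The ROR core, searched as TAGGTCA or TGGGTCA, the site shared by the Rev-erb and ROR receptors, was in 6.45% of all windows and in 2 of the 23, of Arntl and of Nfil3. The motifs do not overlap in the windows printed, and capitals mark each match to the motif named.
Ciart, 3 E-boxes, chr3:95882179-95882478, minus strand: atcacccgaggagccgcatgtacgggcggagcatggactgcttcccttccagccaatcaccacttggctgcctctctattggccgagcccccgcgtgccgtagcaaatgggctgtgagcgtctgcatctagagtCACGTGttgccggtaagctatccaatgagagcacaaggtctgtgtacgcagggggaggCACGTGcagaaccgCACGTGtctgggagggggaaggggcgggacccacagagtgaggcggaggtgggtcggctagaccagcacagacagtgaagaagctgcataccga
Tef, 1 E-box, chr15:81802423-81802722, plus strand: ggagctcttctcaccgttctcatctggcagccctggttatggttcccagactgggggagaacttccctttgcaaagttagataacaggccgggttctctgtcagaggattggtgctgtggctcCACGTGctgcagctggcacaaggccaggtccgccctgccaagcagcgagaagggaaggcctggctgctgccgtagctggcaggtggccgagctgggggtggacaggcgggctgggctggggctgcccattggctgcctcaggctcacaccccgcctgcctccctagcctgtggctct
Per3, 2 D-boxes, chr4:151044616-151044915, minus strand: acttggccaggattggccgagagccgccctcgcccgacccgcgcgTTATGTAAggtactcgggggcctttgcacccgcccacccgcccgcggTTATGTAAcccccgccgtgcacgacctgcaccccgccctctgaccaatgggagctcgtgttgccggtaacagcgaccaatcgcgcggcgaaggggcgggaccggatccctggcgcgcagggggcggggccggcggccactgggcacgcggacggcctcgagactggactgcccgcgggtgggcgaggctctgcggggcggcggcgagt
Arntl, 1 ROR core, chr7:113207261-113207560, plus strand: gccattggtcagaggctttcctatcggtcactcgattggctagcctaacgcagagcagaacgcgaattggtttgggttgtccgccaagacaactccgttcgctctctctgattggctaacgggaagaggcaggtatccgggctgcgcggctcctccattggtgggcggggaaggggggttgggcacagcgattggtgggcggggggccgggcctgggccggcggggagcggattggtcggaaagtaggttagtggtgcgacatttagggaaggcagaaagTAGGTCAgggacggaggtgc
The windows of Dbp and Nr1d1 held none of the 3 motifs. A match is a description of the letters and not a measured site.

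Among the PAR bZIP factors, Dbp, an activator at D-boxes, was at 0.66, 0.58 and 0.68 RPKM in the 3 Con libraries and at 112, 88.9 and 97.8 in the 3 HFD+AOS libraries. It was at 0.56, 0.27 and 0.59 in HFD and 3.41, 0.36 and 1.78 in AOS, so that the HFD+AOS libraries stood far above those of the other 3 groups. The mean RPKM was 155 times that of Con (log2 fold change 5.93 ± 0.51, adjusted p = 5.6e-06), and the difference from HFD was 6.09 (adjusted p = 6.4e-06). Dbp was the gene with the largest fold change in either direction. Tef, a second factor of the kind, went from 5.14, 8.39 and 6.6 in Con to 44.4, 40.5 and 42 in HFD+AOS (log2 fold change 2.51 ± 0.26, adjusted p = 2.4e-05). Hlf, another of them, rose by 0.76 ± 0.12 on the log2 scale (adjusted p = 0.00063). Hlf, Usp2, Cry2, Bhlhe41, Per1 and Per2 are named as further members of the clock list, after their values were seen.

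The Rev-erb receptors rose with them. Nr1d1 was at 1.22, 3.68 and 2.72 RPKM in Con and at 70.1, 56.8 and 54.4 in HFD+AOS (log2 fold change 4.17 ± 0.62, adjusted p = 0.00042). Libraries of HFD (21.7, 7.35 and 2.12) and AOS (30.7, 10.0 and 16.9) lay between them, except for 1 HFD library inside the range of Con. Nr1d1 was higher than in HFD (log2 fold change 2.86, adjusted p = 0.012), and against AOS the difference of 1.73 had an adjusted p of 0.12. Nr1d2 was at 2.05, 3.03 and 2.49 in Con and 20.4, 18.1 and 21.9 in HFD+AOS (log2 fold change 2.59 ± 0.22, adjusted p = 5.6e-06). The repressors Ciart, an inhibitor of Clock and Bmal1, and Per3 moved the same way. Ciart, whose window holds 3 E-boxes, went from 0.35, 0.36 and 0.45 to 7.21, 9.82 and 10.7 (log2 fold change 2.87 ± 0.20, adjusted p = 1.1e-06). Per3, whose window holds 2 D-boxes, went from 0.18, 0.81 and 0.58 to 7.77, 6.6 and 8.47 (log2 fold change 2.52 ± 0.23, adjusted p = 1.3e-05). All HFD and AOS libraries were at or below 1.06 for both genes, far from HFD+AOS. Of the Con and HFD+AOS libraries, only those of HFD+AOS reached 1 RPKM for Ciart, Per3 and Dbp. The filter on low values could therefore keep these genes through the group where they were high alone. Of the other members, Usp2, Cry2 and Bhlhe41 rose by 1.41, 1.06 and 0.98 on the log2 scale. Per1 (log2 fold change 1.03, adjusted p = 0.083) and Per2 (0.45, adjusted p = 0.36), the period genes that also answer to feeding and glucocorticoids, did not pass the test.

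On the Bmal1 side, Arntl itself was at 10.1, 12.9 and 12.2 RPKM in Con and at 1.18, 1.23 and 1.32 in HFD+AOS (log2 fold change -2.50 ± 0.22, adjusted p = 8e-06), while HFD (12.1, 14.6 and 13.2) and AOS (11.2, 12.7 and 11.8) libraries were near Con. Its partner Npas2 fell from 2.9, 3.48 and 2.95 to 0.11, 0.06 and 0.19 (log2 fold change -1.87 ± 0.15, adjusted p = 3.5e-06). The other partner, Clock, fell by less (-0.85 ± 0.14, adjusted p = 0.00078). Cry1, a late repressor, was at 8.45, 14 and 10.5 in Con and 2.13, 2.06 and 2.18 in HFD+AOS (log2 fold change -1.91 ± 0.29, adjusted p = 0.00055). Nfil3, the repressor at D-boxes, was at 23.7, 21.2 and 23.1 and 8.85, 9.25 and 6.76 (log2 fold change -1.36 ± 0.15, adjusted p = 4.8e-05). The groups did not overlap for any of these 5 genes, as for 33.7% of all genes. Against HFD 11 of the 14 repressors and PAR bZIP genes were higher and 5 of the 6 Bmal1-phase genes lower, and against AOS 10 and 5. Over all genes 4.17% were higher and 4.58% lower against HFD, and 2.51% and 2.93% against AOS. In the alternatives run, from 10 to 11 of the 14 were higher than in Con and 5 or 6 of the 6 lower.

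**Figure D2:**
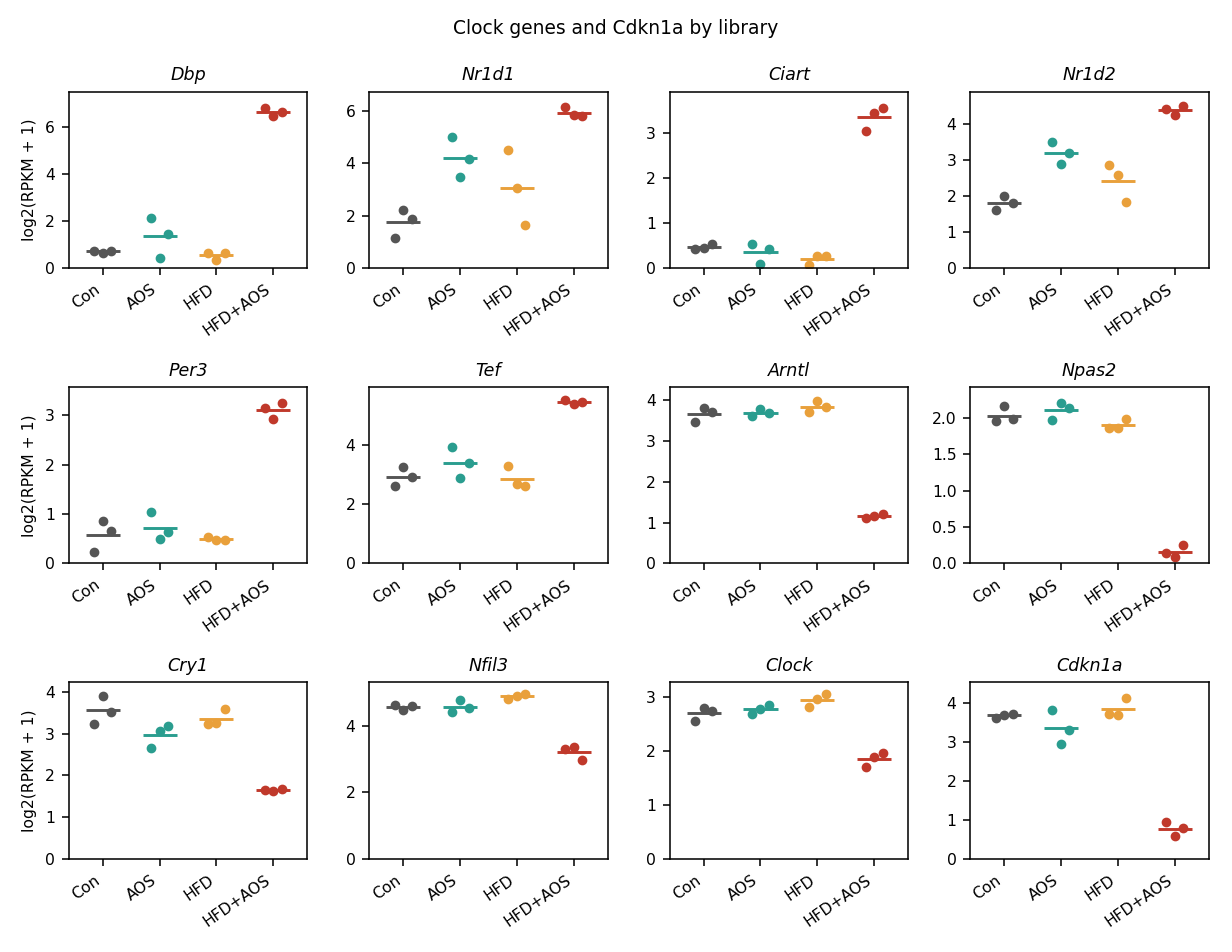
Levels of 11 clock genes and of Cdkn1a as log2(RPKM + 1) (vertical axes, each with its own range from 0) in the 3 libraries of the Con, AOS, HFD and HFD+AOS groups; points are libraries and bars the means of 3. HFD+AOS stands above every Con library for Dbp, Nr1d1, Ciart, Nr1d2, Per3 and Tef, and below every Con library for Arntl, Npas2, Cry1, Nfil3, Clock and Cdkn1a.

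Genes outside the clock lists also stood among the largest changes. Rgs16, a regulator of G-protein signalling, was at 0.52, 1.91 and 1.59 RPKM in Con and 35.1, 28 and 30.8 in HFD+AOS (log2 fold change 3.83 ± 0.64, adjusted p = 0.001). The AOS libraries were spread widely for Rgs16 (27.8, 2.11 and 11.6), and that difference did not pass (1.63, adjusted p = 0.16). Upp2, which splits uridine, was at 30.9, 63 and 43.9 in Con and 199, 201 and 212 in HFD+AOS (log2 fold change 2.18 ± 0.34, adjusted p = 0.00058). Rassf4 (2.33 ± 0.52, adjusted p = 0.0068) and the stress-induced pseudokinase Trib3 (1.98 ± 0.35, adjusted p = 0.0016) also rose. Mfsd2a, a carrier of lysophospholipids, rose by 2.31 ± 0.65, and its call was lost without the first or the third Con library or the first or the third HFD+AOS library. Among the falls, Cdkn1a, the cell cycle inhibitor p21, went from 11.3, 11.9 and 12.1 to 0.91, 0.51 and 0.73 (log2 fold change -2.90 ± 0.29, adjusted p = 1.9e-05). Ppard, the receptor PPAR-delta, went from 16, 18.1 and 18.7 to 2.26, 1.78 and 2.17 (log2 fold change -2.60 ± 0.25, adjusted p = 1.7e-05). Elovl3, an elongase of very long fatty acids, went from 209, 228 and 239 to 25.2, 26.5 and 45.3 (log2 fold change -2.81 ± 0.29, adjusted p = 2.4e-05). Tubb2a, a beta-tubulin, fell by 2.72 ± 0.47 (adjusted p = 0.0012). Cdkn1a, Ppard, Elovl3 and Tubb2a were lower than in HFD and than in AOS as well, with adjusted p values of at most 0.0054.

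Acute phase genes fell, several of them steeply. Of 24 tested, 13 were lower in HFD+AOS than in Con and none higher (median -0.80), beside 5.26% lower over all genes. HFD+AOS lay wholly below Con for 11, beside 13.2% of all genes. The levels of Con were uneven, with the first library high, the second low and the third, whose values follow those of the first and second, between them. Saa1, a serum amyloid A, was at 6422, 296 and 3570 RPKM in Con and at 113, 79.5 and 50.9 in HFD+AOS (log2 fold change -4.60 ± 0.84, adjusted p = 0.0019). Saa2 was at 7018, 300.04 and 3826 and 49.4, 32 and 22.2 (log2 fold change -5.89 ± 0.84, adjusted p = 0.00031). Even the lowest Con library was above every HFD+AOS library for both genes. The reads of Saa1 and Saa2 are nearly alike, and their levels cannot be fully separated. Lcn2, the iron-siderophore binder lipocalin 2, was at 1043, 47.5 and 612 in Con and 21.7, 9.19 and 9.47 in HFD+AOS (log2 fold change -4.55 ± 0.90, adjusted p = 0.0033). Saa3 was at 344, 22.6 and 195 and 10.3, 7.94 and 7.07 (log2 fold change -3.65 ± 0.62, adjusted p = 0.0011). The orosomucoids, plasma carriers of drugs, fell too, Orm2 from 762, 39.8 and 441 to 11.7, 11.3 and 11.3 (log2 fold change -4.27 ± 0.80, adjusted p = 0.0024). Orm1 went from 3250, 1037 and 2220 to 658, 507 and 458 (log2 fold change -1.87 ± 0.33, adjusted p = 0.0015).

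The 6 genes given above did not pass against HFD or against AOS. Saa1 was at 100.4, 156 and 43.2 RPKM in HFD and 278, 61.1 and 131 in AOS, and HFD+AOS differed from these by -0.19 (adjusted p = 0.92) and -0.76 (adjusted p = 0.65). Of the 24 acute phase genes 2 were lower than in HFD, beside 4.58% of all genes. Against AOS none passed by limma, 3 being lower and 1 higher at an unadjusted p under 0.05. Of all 10507 genes 1237 were lower and 917 higher than in AOS at that threshold. The count against Con went from 9 to 22 over the alternatives, with 9 when only the 2 groups entered the fit, without the first Con library and without the third, and 22 without the second Con library, the low one. Markers of neutrophils and monocytes summed to between 5.27 and 11.5 RPKM in Con and between 4.25 and 6.65 in HFD+AOS. The members went both ways: of 3 tested none passed by limma, and 2 were lower and 1 higher at an unadjusted p under 0.05. Over all genes 11.3% were lower and 19.3% higher at that threshold. The part of these markers in the acute phase result was not tested.

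**Figure D3:**
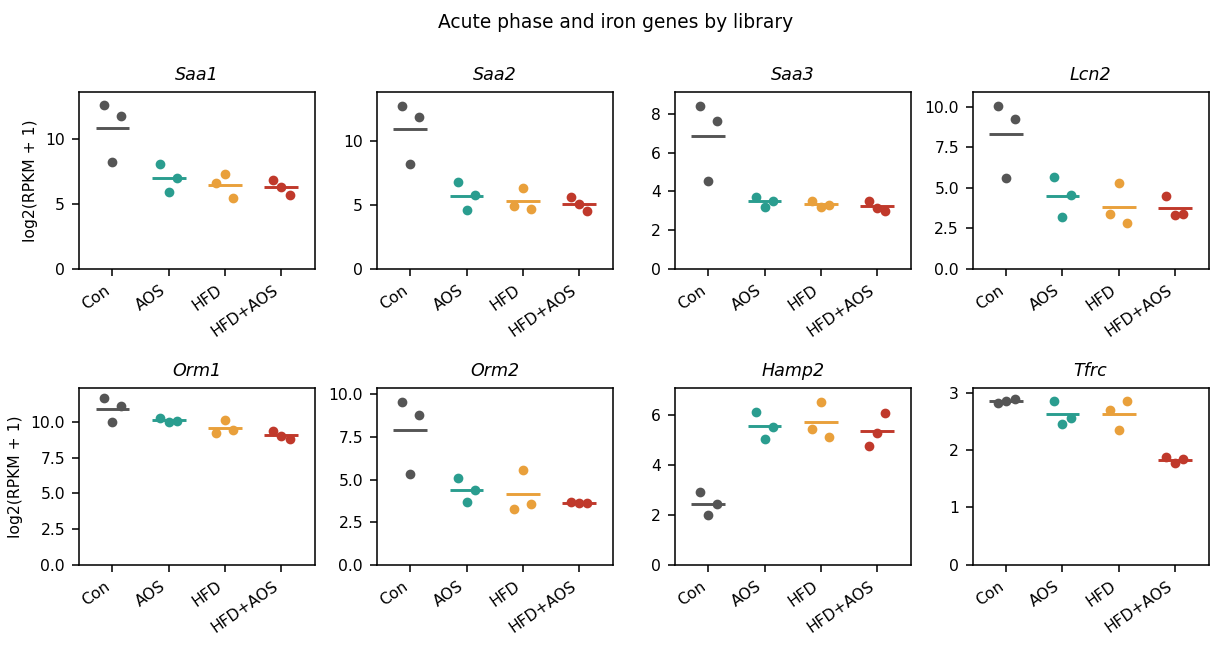
Levels of 6 acute phase genes and the iron genes Hamp2 and Tfrc as log2(RPKM + 1) (vertical axes, each with its own range from 0) in the 3 libraries of the Con, AOS, HFD and HFD+AOS groups; points are libraries and bars the means of 3. Saa1, Saa2, Saa3, Lcn2, Orm1 and Orm2 are high in the first and the third Con libraries, and Hamp2 is lower in all Con libraries than in the other 3 groups.

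Of 11 iron genes 3 were higher and 1 lower (median 0.21), with 7 fold changes above 0 and 4 below, beside 10.8% higher and 5.26% lower over all genes. Hamp2, the second hepcidin gene, was at 6.5, 2.96 and 4.32 RPKM in Con and at 25.6, 37.2 and 65.5 in HFD+AOS (log2 fold change 2.92 ± 0.52, adjusted p = 0.0016), but HFD (42.6, 90.5 and 33.7) and AOS (67.9, 31.8 and 44.7) libraries were as high. Reads of Hamp2 may be shared with its near copy Hamp, named for this reason after its values were seen, which had a log2 fold change of 0.52 (adjusted p = 0.45). Tfrc, the transferrin receptor that takes up iron, fell from 6.06, 6.23 and 6.39 to 2.67, 2.42 and 2.6 (log2 fold change -1.02 ± 0.14, adjusted p = 0.00023), and was lower than in HFD (adjusted p = 0.0029) and AOS (adjusted p = 0.0038). Of 14 complement genes 1 was higher and 2 lower.

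Fatty acid oxidation with ketogenesis rose broadly. Of its 39 genes 28 were higher in HFD+AOS than in Con and none lower, beside 10.8% higher and 5.26% lower over all genes. All 39 log2 fold changes were above 0 (median 0.51, range 0.07 to 1.81), beside 5877 of 10507 over all genes. The count called higher was from 19 to 30 over the alternatives, and lowest when only the 2 groups entered the fit. In the carnitine shuttle that brings fatty acids into mitochondria, 2 of 5 rose. Cpt1a, its first and rate-limiting enzyme, was at 39.9, 42.9 and 40.5 RPKM in Con and at 98, 87.2 and 112 in HFD+AOS (log2 fold change 1.24 ± 0.13, adjusted p = 2e-05), with HFD (75.6, 52 and 56.9) and AOS (62.2, 51.6 and 52.9) between them. It was higher than in either (adjusted p = 0.0039 and 0.0015). Slc25a20, the carnitine carrier of the inner membrane, rose by 0.67 ± 0.12 (adjusted p = 0.002), and Cpt2 had 0.20 ± 0.10 (adjusted p = 0.2).

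In ketogenesis Bdh1 and Acat1 rose, under every alternative run. Bdh1, which makes beta-hydroxybutyrate, was at 49.9, 71.9 and 62.8 RPKM in Con and 129, 119 and 125 in HFD+AOS (log2 fold change 1.02 ± 0.10, adjusted p = 2e-05), and was also higher than in HFD (0.48, adjusted p = 0.011) and AOS (0.66, adjusted p = 0.0016). Acat1, a thiolase of mitochondria, rose by 0.91 ± 0.17. In mitochondrial beta-oxidation 15 of 17 rose by small and even amounts (range 0.23 to 0.84 over all 17), as in Hadhb, the thiolase subunit of the trifunctional protein (log2 fold change 0.59 ± 0.08, adjusted p = 0.00031), and Acad10 (log2 fold change 0.84 ± 0.11, adjusted p = 0.00016). None of the 17 passed against HFD by limma, and 3 were higher at an unadjusted p under 0.05, beside 1308 of 10507 over all genes. Of 13 peroxisomal genes 7 rose, among them the thiolase Acaa1a (log2 fold change 0.80 ± 0.13, adjusted p = 0.00081), the isomerase Eci2 (log2 fold change 0.77 ± 0.09, adjusted p = 7.7e-05) and the fatty acid transporter Abcd2 (log2 fold change 1.57 ± 0.36, adjusted p = 0.0086). Acot3, a peroxisomal thioesterase, was uneven at 7.34, 1.07 and 4.6 RPKM in HFD+AOS and 0.09, 0.45 and 0.41 in Con. Of these libraries only those of HFD+AOS reached the filter of 1 RPKM. The call of Acot3 was lost without the first Con library or the first or the third HFD+AOS library. Against HFD 5 of the 39 genes were higher and 1 lower, beside 4.17% higher and 4.58% lower over all genes. Against AOS 5 were higher and none lower, beside 2.51% and 2.93%.

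**Figure D4:**
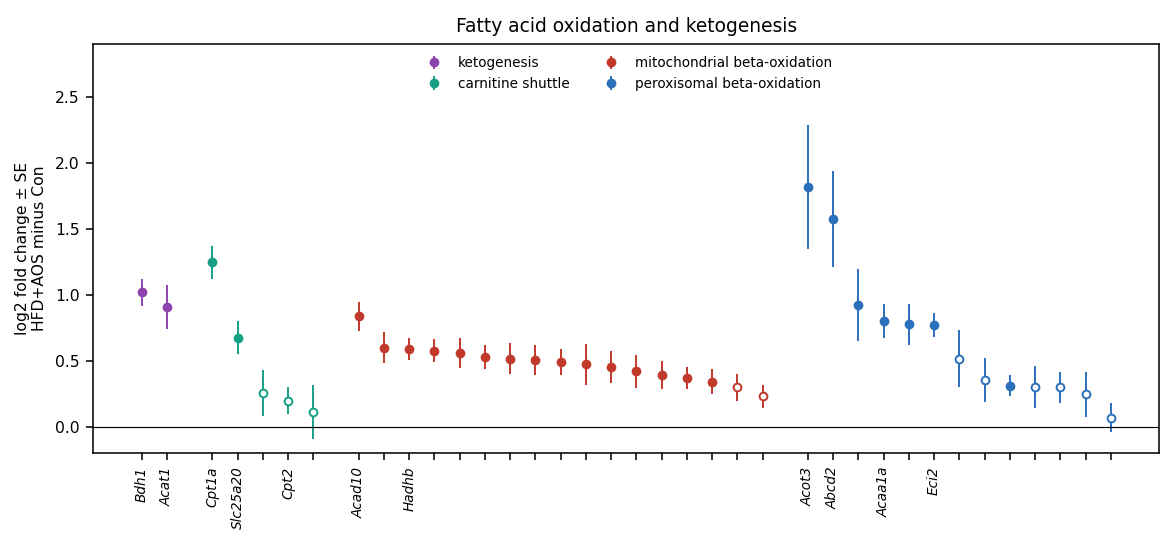
Log2 fold changes of 37 of the 39 genes of fatty acid oxidation and ketogenesis, HFD+AOS minus Con, with bars of 1 standard error (vertical axis), grouped by role and ordered by size. Filled points are those called higher (26) and open points those that did not pass, with names under the genes described in the text, and every point lies above 0.

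Of the PPAR receptors, Ppara and Ppard parted. Ppara, the receptor that drives fatty acid oxidation in the liver, was at 12, 19.5 and 17 RPKM in Con and 39.9, 35.1 and 40.3 in HFD+AOS (log2 fold change 1.22 ± 0.14, adjusted p = 6.2e-05), and Ppard fell, as given above. Rxra, their shared partner, rose by 0.36 ± 0.08. Of 14 other known targets 5 were higher and 2 lower, beside 10.8% higher and 5.26% lower over all genes. Angptl4, an inhibitor of lipoprotein lipase, rose by 0.79 ± 0.14, Vnn1 by 1.28 ± 0.29, the fatty acid receptor Cd36 by 0.84 ± 0.18 and Fgf21, a fasting hormone, by 1.07 ± 0.25, with adjusted p values of at most 0.0089. Fgf21 was low throughout, at 0.98, 0.78 and 1 RPKM in Con, 2.81, 2.27 and 4.2 in HFD+AOS and 5.64, 2.46 and 5.15 in HFD. Pdk4, which shuts carbohydrate out of the citric acid cycle, went the other way, from 1.87, 2.92 and 2.38 to 1.17, 0.61 and 0.86 (log2 fold change -0.85 ± 0.23, adjusted p = 0.021), a call that was lost without the second or the third Con library or the second or the third HFD+AOS library. The omega-hydroxylases Cyp4a14 and Cyp4a10, genes commonly read as markers of PPAR-alpha, did not pass. Cyp4a14 was at 0.2, 0.57 and 0.55 in Con and 2.07, 3.99 and 18.5 in HFD+AOS (log2 fold change 2.22 ± 0.77, adjusted p = 0.061), above Con in all 3 libraries but with 1 library far above the other two. Cyp4a10 had a log2 fold change of 1.62 ± 0.70 (adjusted p = 0.13), and the HFD libraries were at 36.7, 15.4 and 11.6. Of the 10 Cyp4 genes tested, 1, Cyp4f15, rose (0.73 ± 0.13).

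Part of the sterol export and LXR genes rose, and sterol synthesis showed no call. Of 10 LXR genes and sterol exporters 6 were higher and none lower, beside 10.8% higher and 5.26% lower over all genes. Abcg5 and Abcg8 are the subunits of the transporter that puts cholesterol into bile. They start 110 bases apart on opposite strands of chromosome 17, at 84683011 for Abcg5 on the minus strand and 84683121 for Abcg8 on the plus strand, so that 209 bases of their RefSeq windows are the same. The window of Abcg5 is printed because the pair moved together, read on the minus strand with the 111 bases from one start to the other in capitals.
Abcg5, chr17:84682962-84683261, minus strand: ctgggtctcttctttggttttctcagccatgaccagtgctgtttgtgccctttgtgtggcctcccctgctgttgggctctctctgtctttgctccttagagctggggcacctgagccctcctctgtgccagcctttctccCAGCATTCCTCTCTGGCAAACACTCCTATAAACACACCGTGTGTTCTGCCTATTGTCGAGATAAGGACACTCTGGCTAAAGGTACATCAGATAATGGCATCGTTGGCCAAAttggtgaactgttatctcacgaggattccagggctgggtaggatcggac
Abcg5 was at 17.7, 14.7 and 16.6 RPKM in Con and at 40.9, 41.2 and 45.6 in HFD+AOS (log2 fold change 1.33 ± 0.13, adjusted p = 1.9e-05). Abcg8 was at 11.2, 11.3 and 10.9 and 32.6, 33.8 and 32.9 (log2 fold change 1.49 ± 0.14, adjusted p = 1.6e-05). Both were also higher than in HFD (adjusted p = 0.0011 and 0.00043) and than in AOS (adjusted p = 0.031 and 0.015), with AOS libraries above HFD libraries in all cases. Npc1, which lets cholesterol out of lysosomes, was at 12.5, 18 and 15.4 in Con and 35.1, 36 and 35.1 in HFD+AOS (log2 fold change 1.17 ± 0.09, adjusted p = 3.5e-06). Soat2, which esterifies cholesterol, rose by 0.81 ± 0.17 (adjusted p = 0.0044). The LXR receptors Nr1h3 (0.10 ± 0.09) and Nr1h2 (0.05 ± 0.09) did not pass. None of 20 genes of cholesterol synthesis passed by limma, with log2 fold changes from -0.77 to 0.24, none had an unadjusted p under 0.05, and none passed under any alternative run.

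Fatty acid synthesis showed no common direction. Of 24 genes 3 were higher and 3 lower, beside 10.8% higher and 5.26% lower over all genes. Srebf1, the gene of the lipogenic factor SREBP-1, rose from 29.9, 58.2 and 44.4 to 87.3, 83.4 and 79.6 RPKM (log2 fold change 0.95 ± 0.20, adjusted p = 0.0051), while Insig2, which retains SREBP in the endoplasmic reticulum, fell from 159.5, 109 and 134 to 69, 64.4 and 64.7 (log2 fold change -0.998 ± 0.32, adjusted p = 0.047), a call lost without the first or the third Con library or any of the 3 HFD+AOS libraries. Scd1, the main desaturase, was at 676, 815 and 740.0 in Con and at 538, 48.1 and 304 in HFD+AOS, so that all 3 libraries were below Con but widely spread, and the difference did not pass (log2 fold change -1.89 ± 0.94, adjusted p = 0.19). Fasn, fatty acid synthase, had -0.61 ± 0.42 (adjusted p = 0.36). Elovl1, an elongase, fell by 0.98 ± 0.16, and the desaturase Fads2 rose by 1.09 ± 0.31, losing its call without the first or the third Con library or the first or the third HFD+AOS library.

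In triglyceride assembly, droplets and lipolysis 9 of 28 genes were higher and 2 lower, beside 10.8% higher and 5.26% lower over all genes. Lpin2, a phosphatidate phosphatase, went from 10.2, 13.7 and 11.8 to 23.7, 22 and 28.9 RPKM (log2 fold change 1.000 ± 0.12, adjusted p = 7.3e-05), and Dgat2, which makes the last bond of triglyceride, from 129.7, 149 and 147 to 233, 231 and 248 (log2 fold change 0.74 ± 0.12, adjusted p = 0.00099). Pnpla2, the lipase that starts lipolysis, rose by 0.47 ± 0.10, whereas its coactivator Abhd5 fell by 0.38 ± 0.10, losing its call without the first Con or the first HFD+AOS library. Of 31 genes of fatty acid uptake and lipoproteins 8 were higher and 2 lower. Slc27a2, a fatty acid transporter and activating enzyme, rose from 237, 248 and 248 to 414, 519 and 481 (log2 fold change 0.94 ± 0.11, adjusted p = 5.9e-05). Lpl, lipoprotein lipase, fell from 9.22, 12.1 and 10.7 to 4.04, 4.57 and 6.27 (log2 fold change -0.98 ± 0.21, adjusted p = 0.0061) and stood at the HFD level (-0.13, adjusted p = 0.75).

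Bile acid genes were higher in 10 of 31 cases and lower in 1, beside 10.8% higher and 5.26% lower over all genes. Of 13 genes of synthesis 2 were higher and 1 lower, and of 6 of the receptor axis 3 were higher. Of 12 transporters 5 were higher, among them Abcc2, the canalicular pump for conjugated anions (20.0, 28.8 and 24 RPKM in Con, 43.6, 43 and 44.4 in HFD+AOS, log2 fold change 0.84 ± 0.11, adjusted p = 0.00014), and Abcb4, which moves phospholipid into bile (log2 fold change 0.90 ± 0.14, adjusted p = 0.00078). Slco1b2, an uptake carrier of the sinusoid, rose by 0.56 ± 0.08. Nr1h4, the bile acid receptor FXR, was at 54.4, 65.5 and 58.6 in Con and 85, 81.2 and 87.3 in HFD+AOS (log2 fold change 0.50 ± 0.10, adjusted p = 0.0045), and was higher than in HFD (adjusted p = 0.038) and in AOS (adjusted p = 0.0053). Cyp7a1, the rate-limiting enzyme of synthesis, was at 30.7, 24.3 and 27.5 and 22.6, 28.2 and 50.1, with overlap of the groups (log2 fold change 0.21 ± 0.56, adjusted p = 0.84). Cyp2c70, which makes the muricholic acids of rodents, fell from 618, 590.5 and 596 to 254, 336 and 383 (log2 fold change -0.91 ± 0.20, adjusted p = 0.0055).

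Retinoid genes were higher in 8 of 32 cases and lower in 3, beside 10.8% higher and 5.26% lower over all genes. Rbp4, the plasma carrier of retinol, was at 2192, 2782 and 2542 RPKM in Con and 3377, 3660 and 3616 in HFD+AOS (log2 fold change 0.51 ± 0.11, adjusted p = 0.0048), a call lost when only the 2 groups entered the fit. Rdh9, a retinol dehydrogenase, rose from 4.27, 6.56 and 5.28 to 20.6, 18.3 and 31.1 (log2 fold change 1.91 ± 0.23, adjusted p = 8.9e-05). Cyp26a1, the enzyme that clears retinoic acid and is itself induced by it, fell from 35, 32.1 and 38.4 to 1.06, 3.24 and 9.41 (log2 fold change -3.003 ± 0.46, adjusted p = 0.00055) and was below HFD and AOS as well (adjusted p = 0.04 and 0.0054). Dhrs9, a further retinol dehydrogenase, was below the filter on low values. Of the retinoid receptors, Rxra, counted above with the PPAR receptors, was higher, and none of the 5 others tested passed by limma, with or without adjustment.

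Of 40 cytochromes P450 of drug metabolism and their regulators 3 were higher and 4 lower, beside 10.8% higher and 5.26% lower over all genes. Cyp2e1, the ethanol-oxidizing form, was at 1755, 2572 and 2221 RPKM in Con and 4663, 4886 and 5282 in HFD+AOS (log2 fold change 1.19 ± 0.14, adjusted p = 5.8e-05), and was above HFD and AOS (adjusted p = 0.013 and 0.0016). Cyp3a11, the main drug oxidase of mouse liver, was at 1710, 2585 and 2082 in Con and 162, 327 and 631 in HFD+AOS (log2 fold change -2.70 ± 0.53, adjusted p = 0.0031). It was below AOS (log2 fold change -3.18, adjusted p = 0.0026), and the difference from HFD did not pass (-1.01 ± 0.53, adjusted p = 0.24). Reads of close members of the Cyp3a and Cyp2c families could have counted for more than 1 gene. Of 40 conjugating enzymes 8 were higher and 4 lower. Of 6 sulfotransferases 3 rose and none fell, Sult1b1 by 1.13 ± 0.20, whereas Gstp1, an abundant glutathione transferase of male liver, went from 7600, 7303 and 7745 to 2123, 5718 and 3959 (log2 fold change -1.05 ± 0.26, adjusted p = 0.013) and lost its call when only the 2 groups entered the fit.

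Of 30 genes of glucose and glycogen metabolism 9 were higher and 3 lower, beside 10.8% higher and 5.26% lower over all genes. Among 9 glycogen genes 5 were higher and 1 lower, and among 5 of gluconeogenesis 1 was higher and 1 lower. Gys2, the glycogen synthase of liver, was at 26.3, 41 and 33.7 RPKM in Con and at 80.2, 79.9 and 81.8 in HFD+AOS (log2 fold change 1.26 ± 0.15, adjusted p = 9.9e-05), while HFD (32.5, 37.7 and 33.4) and AOS (40.2, 34.4 and 34.9) libraries were at the Con level. Gys2 was higher than in HFD (log2 fold change 1.20, adjusted p = 0.00027) and than in AOS (1.13, adjusted p = 0.00064). Ugp2, which makes UDP-glucose, rose by 0.93 ± 0.10. The glucose transporter Slc2a2 rose by 0.99 ± 0.19. G6pc, which frees glucose from its phosphate, was at 156, 265 and 208 in Con and 59.8, 59.5 and 158 in HFD+AOS, with 1 HFD+AOS library inside the range of Con (log2 fold change -1.30 ± 0.35, adjusted p = 0.02), and its call was lost without the second or the third Con library or the first or second HFD+AOS library. Pck1, the first enzyme of gluconeogenesis, had 0.53 ± 0.23 (adjusted p = 0.14). Of 24 genes of insulin, growth hormone and IGF signalling 6 were higher and none lower.

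Amino acid metabolism held 14 of 53 genes that were higher and 3 that were lower, beside 10.8% higher and 5.26% lower over all genes. Tdo2, which opens the ring of tryptophan, went from 331, 458 and 391 to 746, 772 and 736 RPKM (log2 fold change 0.94 ± 0.16, adjusted p = 0.0011). Ddc, a decarboxylase of aromatic amino acids, fell from 103, 115 and 109.6 to 34.9, 46.6 and 45.3 (log2 fold change -1.36 ± 0.17, adjusted p = 0.00011). Of 20 hepatokines, proteins the liver releases as signals, 7 were higher and 2 lower, with Lect2 at 75.7, 89.4 and 79.1 and 177, 139 and 165 (log2 fold change 0.96 ± 0.12, adjusted p = 0.00014). Inhbe, the activin E subunit, rose by 1.31 ± 0.28, and Inhba, the activin A subunit, fell by 1.03 ± 0.19.

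Stress genes split. Of 24 genes of endoplasmic reticulum stress 7 were lower and 2 higher, beside 5.26% lower and 10.8% higher over all genes. Sdf2l1, a chaperone of that compartment, went from 38.9, 39.7 and 41.5 to 14.5, 13.8 and 12.9 RPKM (log2 fold change -1.48 ± 0.38, adjusted p = 0.015) and Hyou1 fell by 1.04 ± 0.28, but neither passed without the third Con library, Hyou1 not without the first Con or first HFD+AOS library either, and without the third Con and AOS libraries none of the 24 was lower. Herpud1, a gene of protein degradation at that membrane, rose from 68.8, 79.5 and 75 to 175, 182 and 174 (log2 fold change 1.24 ± 0.16, adjusted p = 0.00015). The heat shock proteins Hspb1 (66.6, 65.7 and 70.2 in Con, 12.3, 12.1 and 18.6 in HFD+AOS, log2 fold change -2.18 ± 0.32, adjusted p = 0.00044) and Hsp90aa1 (log2 fold change -1.39 ± 0.31, adjusted p = 0.0064) fell, and the cold-induced RNA binders Rbm3 and Cirbp rose by 0.65 and 0.59, neither passing without the third Con library, nor Rbm3 without the first, nor Cirbp without the second Con or the first or the third HFD+AOS library. Gadd45a, a growth arrest gene, rose from 1.79, 1.27 and 1.42 to 8.24, 7.75 and 7.79 (log2 fold change 1.85 ± 0.15, adjusted p = 3.5e-06), opposite to Cdkn1a in the same list.

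Several large groups held few calls, beside 10.8% higher and 5.26% lower over all genes. Of 77 genes of the respiratory chain 3 were higher and none lower (median 0.06). Of 31 proteasome genes none passed by limma and 4 had an unadjusted p under 0.05, all lower, beside 11.3% of all genes. Of 79 ribosomal protein genes 1 was lower, although 78 of the 79 fold changes were below 0 (median -0.20). With medians set equal 14 ribosomal and 5 proteasome genes were lower, and with quantile normalization 17 and 7.

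Of 36 interferon-stimulated genes 33 fold changes were above 0 (median 0.41), and 17 of the 36 were higher and none lower at an unadjusted p under 0.05, beside 19.3% higher over all genes. After adjustment 3 were higher, Tap1 (0.61 ± 0.12), Ifih1 (0.46 ± 0.10) and Gbp7 (0.61 ± 0.18), of which Gbp7 lost its call without any 1 of the Con libraries or the first or the third HFD+AOS library, and without the second HFD+AOS library 12 of the 36 were higher. Of 23 stellate cell and matrix genes 3 were higher after adjustment, beside 10.8% over all genes, with Reln up by 0.83 ± 0.16. Of 30 genes that differ between the sexes in liver 1 was higher and 4 lower, beside 10.8% and 5.26% over all genes. The 1 was among 8 female-biased genes, all with fold changes above 0 (median 0.81). The 4 were among 22 male-biased genes, of which 15 fold changes were below 0 and 7 above (median -0.24).

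The counts of several lists rested on single libraries. Without the first Con library 3 genes of uptake and lipoproteins, 5 of triglyceride assembly, 6 of bile acids, 5 of retinoids, 7 of amino acids and 2 hepatokines were higher. Without the third Con library the counts in that order were 4, 5, 6, 5, 7 and 5. Without the first HFD+AOS library 3 of uptake and lipoproteins, 8 of amino acids and 3 hepatokines were higher, and without the third HFD+AOS library 5 of uptake, 5 of triglyceride assembly, 5 of retinoids and 7 of amino acids. The endoplasmic reticulum stress genes called lower were from 0 to 4 with any 1 of the 6 libraries left out. With any 1 of the 6 left out, at least 20 genes of fatty acid oxidation, 4 of sterol export and LXR and 10 of the clock repressors and PAR bZIP factors were higher.

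**Figure D5:**
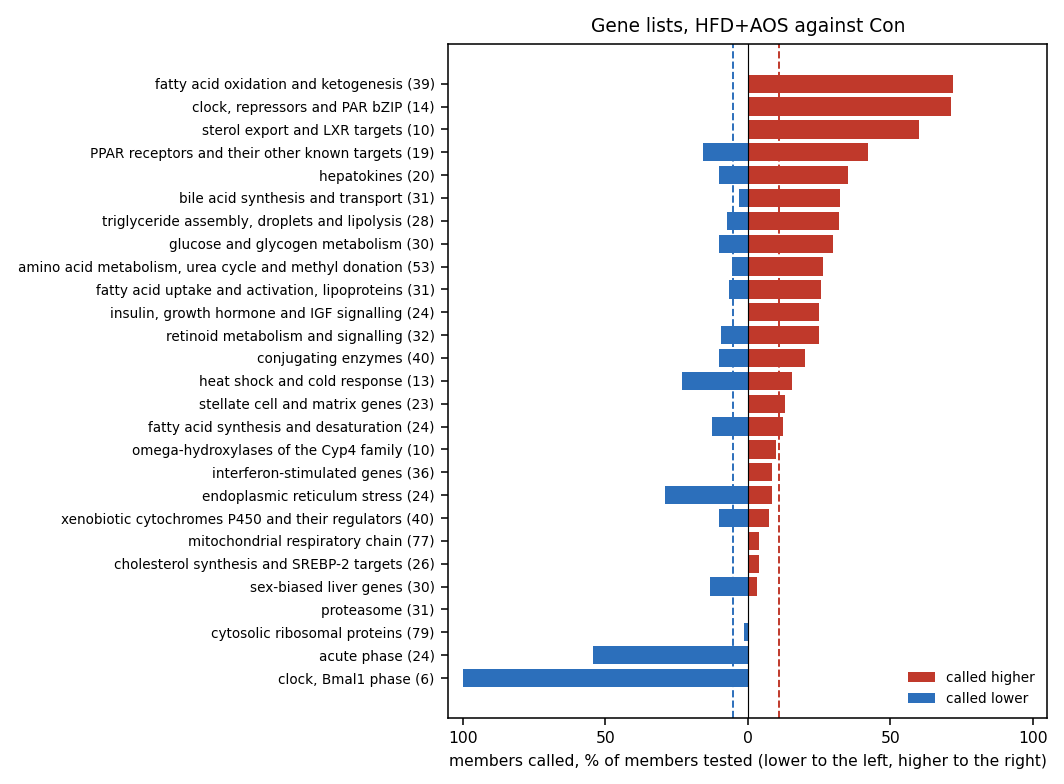
Share of each list's tested members called higher (red, to the right) or lower (blue, to the left) in HFD+AOS against Con, in percent, with the number tested in parentheses. Dashed lines mark the shares over all genes tested, 10.8% higher and 5.26% lower. The clock lists, acute phase, fatty acid oxidation, and sterol export and LXR targets stand farthest from them.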

How the data were processed

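Livers of 18 ICR mouse libraries were measured by RNA-seq, 3 in each of 6 groups taken from the labels. The authors deposited 1 table of RPKM values for the series, rounded to 2 decimals, with 19057 lines. The study's methods name SOAPaligner, whereas the submitters' processing notes name Bowtie 0.12.2 and mm10, and the annotation and the use of strand are not given in the sources used here. Read counts were not analysed here, so depth is unknown, no count model was run and DEGseq, which the study used, was not. Multi-mapped reads may have counted for several near-identical genes.

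Genes that reached 1 RPKM in 3 or more of the 18 libraries were kept (10507). On log2(RPKM + 1), limma 3.58.1 in R 4.3.3 fitted 1 mean per group over all 18 libraries, with a trended prior variance, and HFD+AOS was contrasted with Con, HFD and AOS. P values were two-sided and adjusted after Benjamini and Hochberg within a comparison, with a call at an adjusted p under 0.05, and values after ± are standard errors. The scripts were tested on simulated data. The alternatives were equal medians, quantile normalization, a pseudocount of 0.1, no filter, only the groups compared, the replicate number as a block, leaving out single libraries or the third Con and AOS libraries together, and a fold threshold. Genes were named by rule, up to 12 with the largest called fold change each way and a mean RPKM of at least 5 in a group, up to 5 with the smallest p in each list or role, and a few fixed genes; others are marked as chosen after their values were seen, and some genes that the rule names are not reported here. The members and the 25 gene lists and 12 marker lists were chosen with earlier results of these data known. Promoter windows are RefSeq's on GRCm38.p6.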

Additional observations from a re-analysis of the deposited data

How the results depend on the processing

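Over 13 alternatives, 1376 of the fold changes of named genes kept their direction and their side of the threshold, 61 lost the call, 5 gained one and 1 turned. The turn was of an uncalled gene, Cyp7a1 (-0.11 without the third HFD+AOS library, and up to 0.45 with 1 other library left out). Against Con the 1685 calls became 175 with the fold threshold and 828 without the third Con and AOS libraries, and from 954 to 1670 with 1 library left out. Against HFD the 919 calls became 84 with the fold threshold, 435 with only the groups compared and 496 without the third Con and AOS libraries, and from 320 to 1282 with 1 library left out. Against AOS the 572 calls became 91 with the fold threshold and 161 without the third Con and AOS libraries, and from 240 to 459 with 1 library left out. With medians set equal and with quantile normalization the calls were 1994 and 2021 against Con, 1287 and 1310 against HFD, and 767 and 810 against AOS. The quantile split was 1077 higher and 944 lower against Con. Fewer libraries enter the fits that leave some out; for the other changes the cause was not tested.

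The replicate number as a block gave 1654 calls against Con, 887 against HFD and 544 against AOS. Same-numbered libraries of HFD+AOS and Con deviated with correlations of 0.0547, -0.111 and -0.0424, so the numbers were not taken as pairs. Of the named genes Insig2 lost its call under the block (adjusted p = 0.056). Without Con library 3 and AOS library 3 together 13 of the named genes lost their call, beside 10 without Con library 3 alone. With no filter on low values 3 lost it, and with only the groups compared 3 did. The genes that lost a call in these ways are not all marked where they are named above. With RPKM alone, what depth limits could not be worked out.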
